A study of Danio rerio with 20 samples.

Results

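Enzymes that write and erase DNA methylation were examined in the ageing zebrafish brain. The group comprises 10 genes, 7 DNA methyltransferases and 3 TET enzymes, matched by gene symbol to the deposited comparison of old with young wild-type (WT) brain, which lists 2885 genes. Of the 10, 6 are listed, dnmt3aa, dnmt3ab, dnmt3ba, dnmt3bb.1, tet2 and tet3, and all 6 were lower in old brain. Over all tested genes of this comparison, 13.9% were called in either direction and 7.12% are listed as lower. The other 4, dnmt1, dnmt3bb.2, dnmt3bb.3 and tet1, are not listed. The members were chosen by the lower values of dnmt3aa, dnmt3ba and tet3 in this same comparison, so that their fold changes are a description, were not tested again, and are not to be read against these shares.

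DNA methylation is the addition of a methyl group to cytosine, in vertebrates mostly where cytosine precedes guanine. The maintenance enzyme encoded by dnmt1 copies the methylation of the parent strand onto the new strand after replication. The DNMT3 enzymes methylate DNA de novo. Zebrafish carry a pair of dnmt3a genes, dnmt3aa and dnmt3ab, and several dnmt3b-type genes, because of duplications in the fish lineage. TET enzymes oxidise methylcytosine to hydroxymethylcytosine and further, which opens a route back to unmethylated cytosine. In mammals, neurons are rich in hydroxymethylcytosine, and DNMT3A is the main de novo enzyme of postnatal neurons.

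Poly(A) RNA of whole brains of male WT and telomerase-deficient (tert−/−) fish of the AB background was sequenced, with WT fish taken from the same crosses of heterozygous parents as the mutants. The labels cover 20 libraries, of WT at 4 ages and of tert−/− at 3 ages. The comparison used here sets WT brain at over 30 months, with 3 labelled libraries, against WT brain at 2 months, with 2 labelled libraries. These ages are those of the labels, whereas the results of the paper give both groups as ranges of several months. The deposited comparison names the old group by a single number above 30, which was taken to mean the WT group labelled over 30 months. The group size that the study gives for its RNA sequencing is larger than the number of young libraries labelled here. Which libraries entered the fit is not given in the sources used here, and tert−/− brains and the other WT ages were not analysed here. For each listed gene there is a mean normalized count over the libraries of the fit, a shrunken log2 fold change of old over young brain with its standard error, and a DESeq2 Wald test with an adjusted p. There is no value per library, so that neither a spread between fish nor the depth of each library could be given, and the errors below are the standard errors (SE) of the fit, with 95% normal intervals. The p values test each change against the spread between libraries as the fit estimated it, and take in no other source of variation. The table lists genes with an adjusted p under 0.05 and nothing else. Its adjusted and raw p together show that the p adjustment covered 21135 genes, here termed the tested genes, and called 2932 of them. Of these, 1505 are listed as lower. Genes of the fit without an adjusted p are not counted. Folds, shares of the young level and intervals in the text below are computed from the shrunken fold change. Such an interval need not match the adjusted p, which rests on the Wald statistic. In a whole-brain sample, fewer cells of a type and less RNA per cell cannot be told apart.

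Among the 6 listed genes, the de novo methyltransferases had the largest estimated decreases. The intervals of dnmt3ab and dnmt3bb.1, however, cover the values of both TET genes. dnmt3ba (ENSDARG00000052402, chromosome 8, 23355484 to 23381548, GRCz11) was 3.16-fold lower in old brain, or -1.66 on the log2 scale (SE 0.18, adjusted p = 5.19e-18, DESeq2). Its old level was 31.6% of its young level. Among 1505 genes listed as lower, 178 had a larger decrease. Its mean normalized count was 133, against a median of 188 for all listed genes. Of the 271 lower genes within 1.5-fold of its own count, 20 decreased more. Because dnmt3ba, dnmt3aa and tet3 were chosen by their lower values here, these ranks and those below only describe them.

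dnmt3aa, one of the DNMT3A genes, had the strongest statistical support of the group. The gene (ENSDARG00000005394, chromosome 20, 46967269 to 47051996) had a log2 fold change of -1.32 (SE 0.10, adjusted p = 1.44e-35, DESeq2) at a mean normalized count of 838. This equals a 2.49-fold decrease, to 40.1% of the young level. By p it ranked 9 among the 2885 listed genes and 7 among the lower ones. Of 242 lower genes within 1.5-fold of its count, 9 decreased more.

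Its paralog dnmt3ab (ENSDARG00000015566, chromosome 17, 36936918 to 37054959) decreased by 0.92 on the log2 scale (SE 0.16, adjusted p = 1.08e-07, DESeq2), or 1.89-fold. It had the wider interval of the pair, -1.24 to -0.61 against -1.52 to -1.12 for dnmt3aa, although its mean normalized count of 1263 was higher. For listed genes within 1.5-fold of that count the median standard error was 0.108, so that the error of dnmt3ab was 1.49 times this median, whereas that of dnmt3aa was 0.847 times the median of its own count class. The log2 fold changes of the 2 paralogs differed by -0.40, and their intervals overlap.

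dnmt3bb.1, a dnmt3b-type gene, was the weakest call. It lies on chromosome 23 from 17011454 to 17101360 (ENSDARG00000036791) and had a log2 fold change of -0.83 (SE 0.39, adjusted p = 0.0236, DESeq2) at a mean normalized count of 55.8, with an interval from -1.59 to -0.06. By p it ranked 2202 of 2885. Of 177 lower genes within 1.5-fold of its count, 104 decreased more, so that its value is an ordinary one for a gene of this count in the list. The product Wald statistic times SE, which lies farther from 0 than the shrunken value, is -1.18 for it, below the -0.98 of dnmt3ab. Whether this product is the estimate before shrinkage was not tested. dnmt3bb.1, dnmt3bb.2 and dnmt3bb.3 follow each other on chromosome 23 in the RefSeq annotation, and reads that map to more than 1 of them cannot be assigned with certainty. Only dnmt3bb.1 of the 3 is listed.

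The TET genes had the smallest decreases of the listed members, of nearly the same size. tet3 (ENSDARG00000062646, chromosome 5, 14306475 to 14373662) had a log2 fold change of -0.61 (SE 0.07, adjusted p = 2.10e-16, DESeq2) and a mean normalized count of 1961. tet2 (ENSDARG00000076928, chromosome 1, 26356205 to 26402046) had one of -0.62 (SE 0.08, adjusted p = 5.58e-13, DESeq2) and a count of 1038. These equal decreases of 1.52-fold and 1.54-fold, to 65.7% and 65.0% of the young level. Their log2 fold changes differed by -0.02, less than either SE. Both were measured tightly, since their standard errors were 0.653 and 0.718 times the median of listed genes within 1.5-fold of their counts. Of lower genes within 1.5-fold of their counts, 24 of 107 decreased more than tet3 and 33 of 214 more than tet2. The median of all lower genes, at any count, was -0.59.

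**Figure D1:**
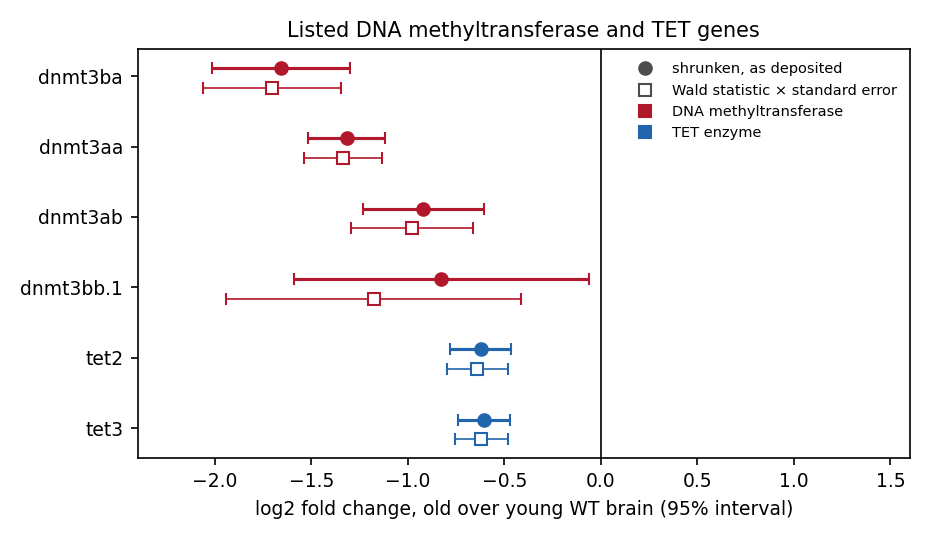
Log2 fold change of old over young WT brain for the 6 listed members (x axis), with 95% intervals as bars. Filled circles are the shrunken values as deposited and open squares the Wald statistic times SE, with DNA methyltransferases in red and TET enzymes in blue. The values run from -1.66 for dnmt3ba to -0.61 for tet3, all 6 intervals lie below 0, and that of dnmt3bb.1 reaches -0.06.

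Ordered by the size of the decrease, the genes run dnmt3ba, dnmt3aa, dnmt3ab, dnmt3bb.1, tet2 and tet3. The intervals of neighbours in this order overlap in all 5 cases, which does not show that their values are equal. Of the 15 pairs of members, 5 have intervals that do not overlap. dnmt3ba and dnmt3aa each stand below both tet2 and tet3, and dnmt3ba stands below dnmt3ab. The same 5 pairs are apart with Wald statistic times SE in place of the shrunken value. These comparisons are of intervals from 1 fit over the same libraries, and the differences between genes were not tested. The median log2 fold change was -1.12 for the 4 listed methyltransferases and -0.61 for the 2 TET genes.

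**Figure D2:**
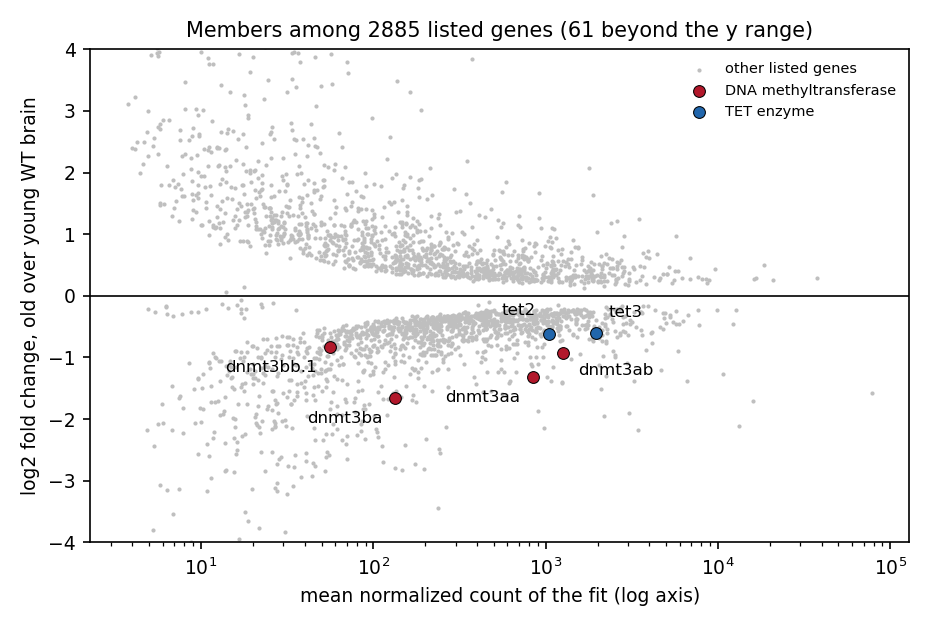
Log2 fold change of old over young WT brain (y axis) against the mean normalized count of the fit (x axis, log scale) for the 2885 listed genes. Grey points are other listed genes, red points DNA methyltransferases and blue points TET enzymes, and 61 genes beyond 4 on either side are not drawn. dnmt3ba, dnmt3aa and dnmt3ab sit at the lower edge of the grey cloud at their counts, while dnmt3bb.1 sits inside it.

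The members that are not listed are the maintenance enzyme gene dnmt1, the dnmt3b-type genes dnmt3bb.2 and dnmt3bb.3, and tet1. They were looked up by identifier as well, and none of the 4 is in the table. The largest p in the table was 0.00694. A gene that is not listed had a larger p, was not tested, or is among the 47 called genes that the adjusted p values imply and the table does not hold, and these cases could not be separated. No value can thus be given for dnmt1, and its absence from the list does not show that its RNA was equal at both ages. trdmt1, an enzyme of the same protein family that methylates transfer RNA, is not listed either.

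dnmt1 acts with a set of partners at replicating DNA. Of 9 annotated genes of this set, 3 were lower, none was higher and 6 are not listed. The share listed was 33.3%. Over all tested genes, 13.9% were called in either direction and 7.12% are listed as lower. No list here or below was tested against these shares, and the lists were chosen with earlier results of these data known. The share of a list is of its annotated genes, some of which may not be among the tested genes. uhrf1, whose product recognises half-methylated DNA and brings DNMT1 to it, had a log2 fold change of -2.34 (SE 0.40, adjusted p = 5.94e-08, DESeq2), a 5.05-fold decrease. cdca7a and cdca7b are zebrafish genes of the CDCA7 family, which in mammals activates the remodeller HELLS and is needed for maintenance methylation. They were at -3.82 (SE 0.70) and -1.79 (SE 0.51). All 3 estimates are below those of the 6 listed methyltransferase and TET genes, but the interval of cdca7b overlaps those of all 4 listed methyltransferases, and that of uhrf1 overlaps those of dnmt3ba and dnmt3bb.1. hells, pcna, usp7, uhrf2, dmap1 and zbtb24 are not listed. The 3 that are listed have mean normalized counts of 65.9 or less. A gene with a wide error passes the p threshold of the table only where its Wald statistic times SE is large. The shrunken value of such a gene can still be smaller in size than its SE. Sizes of change, and medians of lists, are thus not directly comparable between genes of unlike count. uhrf1 and the CDCA7 genes are also known as genes of dividing cells, whose markers are given below.

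Genes that guide DNMT3 and TET enzymes, or modify them, were lower as far as they are listed. Of 24 annotated genes of this set, 7 were lower, none was higher and 17 are not listed. That is 29.2% of the set, with 13.9% of all tested genes called. The median log2 fold change of the 7 was -0.40. ogt.1, which encodes the enzyme that adds N-acetylglucosamine to nuclear proteins and binds TET enzymes in mammals, was at -0.40 (SE 0.05, adjusted p = 4.81e-16, DESeq2). Its mean normalized count was 6265. cxxc1a, which encodes a reader of unmethylated CpG sites, was at -0.56 (SE 0.15) and cxxc4, whose mammalian product binds TET2, at -0.41 (SE 0.16). The histone methyltransferase genes ehmt1b, setdb1a and nsd2 were at -0.30, -0.22 and -0.46, and the CpG-binding histone demethylase gene kdm2ba at -0.22. Apart from ogt.1 these decreases had weaker support, with adjusted p (DESeq2) between 0.000563 and 0.0291.

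Removal of oxidised methylcytosine runs through base excision repair. Of 19 annotated genes, 5 were lower and 1 higher, and 13 are not listed. The share listed was 31.6%, with 13.9% of all tested genes called. gadd45gb.1, of a family linked to active demethylation and to stress and neuronal differentiation, was at -2.62 (SE 0.35, adjusted p = 2.36e-12, DESeq2). tdg.2, which encodes a thymine DNA glycosylase, the enzyme type that excises the last TET products, was at -0.37 (SE 0.16, adjusted p = 0.0414, DESeq2). The repair genes apex1, parp1 and unga were at -0.60, -0.37 and -1.15. For unga the interval ran from -2.36 to 0.06 and the adjusted p was 0.0270 (DESeq2). The higher gene was neil1, a DNA glycosylase gene, at 0.77 (SE 0.38).

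Genes of the proteins that read methylated DNA, with their corepressors, went both ways. Of 14 annotated, 3 were lower and 3 higher, and 8 are not listed. The share listed was 42.9%, with 13.9% of all tested genes called. Both zebrafish mbd3 genes were lower, mbd3a at -0.78 (SE 0.17) and mbd3b at -0.49 (SE 0.09, adjusted p = 3.64e-07, DESeq2), as was the deacetylase gene hdac1 at -0.33. Their products belong to the same repressor complex, NuRD, and in mammals MBD3 binds methylated DNA only weakly. The higher ones were mbd1a, a methyl-CpG binding protein gene, at 0.35, zbtb38, a zinc finger reader of methylated DNA, at 0.35 and the corepressor gene ncor1 at 0.32. Each had a standard error of 0.13 or less. Their adjusted p (DESeq2) lay between 0.0198 and 0.0236, weaker support than for the 3 lower genes, whose largest was 0.00197.

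Genes that supply the methyl donor S-adenosylmethionine, and 2-oxoglutarate as the TET cosubstrate, were also split. Of 27 annotated genes, 4 were lower and 2 higher, and 21 are not listed. That is 22.2% listed, with 13.9% of all tested genes called. mat2ab, which encodes a methionine adenosyltransferase that makes the methyl donor, was at -1.47 (SE 0.37, adjusted p = 0.000189, DESeq2), a 2.78-fold decrease. The folate cycle gene mthfd1b was at -1.08, and idh1, whose product makes 2-oxoglutarate, at -0.46. The folate genes dhfr and shmt2 were higher, at 0.82 and 0.61.

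**Figure D3:**
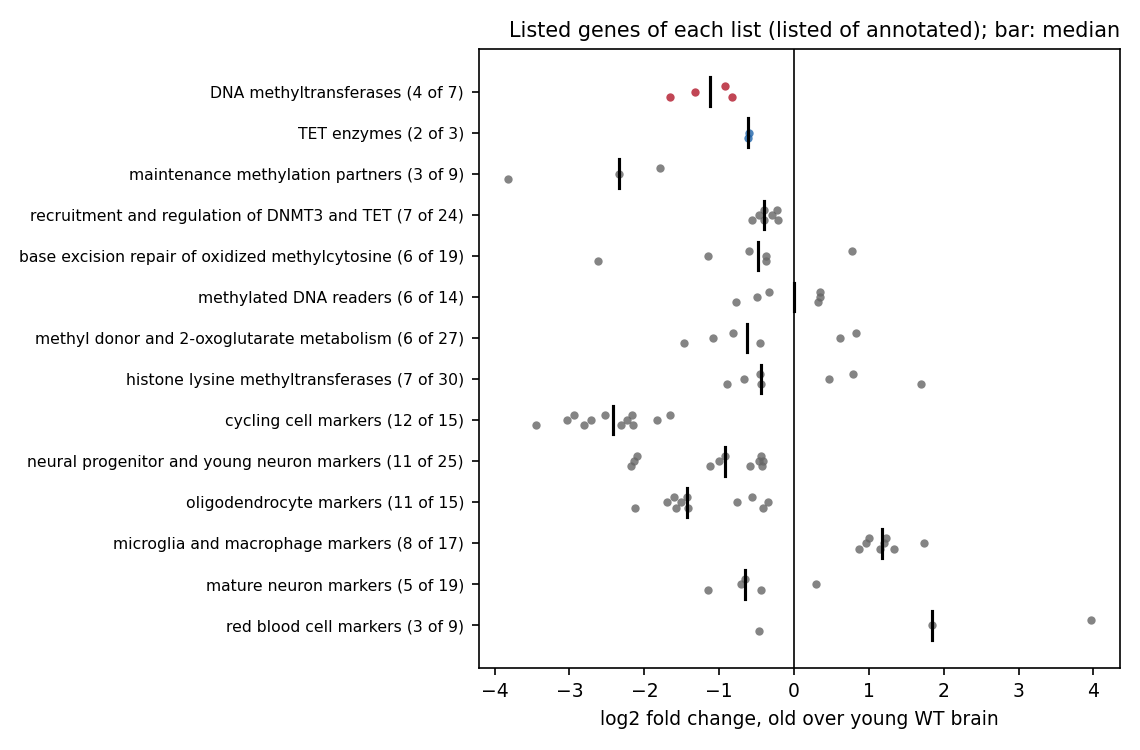
Log2 fold change of old over young WT brain (x axis) for the listed genes of each list (y axis), with the number listed of those annotated in parentheses. Each point is a gene, red for DNA methyltransferases and blue for TET enzymes, and each black bar is the median of a list. The listed methyltransferases are all below 0 with a median of -1.12, cycling cell markers lie between -3.45 and -1.65, and microglia and macrophage markers are all above 0.

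Markers of several cell types moved in the same comparison, in which 13.9% of all tested genes were called and 7.12% are listed as lower. Of 15 cycling cell markers, 12 were lower (range -3.45 to -1.65), among them top2a at -2.80 and mki67 at -3.45, while mcm3, mcm7 and bub1 are not listed. Of 25 markers of neural progenitors and young neurons, 11 were lower, none was higher and 14 are not listed (range -2.17 to -0.42), with tubb5 at -2.17, insm1a at -2.14 and sox4a at -1.12. Of 15 oligodendrocyte markers, 11 were lower (range -2.12 to -0.35), with plp1b at -2.12. Of 17 markers of microglia and macrophages, 8 were higher (range 0.86 to 1.73), among them ptprc and csf1ra, and 9 are not listed. Of 19 markers of mature neurons, 4 were lower, which were neurofilament genes, and snap25a was higher at 0.30. Of 9 red blood cell markers, 2 were higher and 1 lower. Defining genes of brain tissue were abundant, with mean normalized counts of 78061 for the myelin gene mbpa and 37420 for the synaptic gene snap25a. The part of these cell types in the decrease of the methyltransferase and TET genes, and of the maintenance partners, was not tested, as the table has no value per library or per cell.

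By position, the 6 listed members lie on 6 different chromosomes. Their distance to the nearer chromosome end ranged from 8.15 to 26.4 Mb, with a median of 16.7 Mb against 13.7 Mb for all listed genes. They are long genes, with spans from 26.1 kb for dnmt3ba to 118 kb for dnmt3ab and a median of 76.0 kb, against 19.4 kb for all lower genes. Within 500 kb of the listed members lie 18 other listed genes, of which 11 were lower and 7 higher. Over all listed genes, 52.2% were lower, and the difference from this share was not tested.

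The neighbours nearest to dnmt3aa and dnmt3ab had values close to those of the member. The clone-named gene CU571074.2 (ENSDARG00000096770, chromosome 20, 46957091 to 46959768) lies 7.5 kb from dnmt3aa. It had a log2 fold change of -1.31 (SE 0.15, adjusted p = 6.19e-17, DESeq2), next to -1.32 for dnmt3aa, and a similar mean normalized count, 1019. Whether its reads belong to a transcript of dnmt3aa was not tested. On chromosome 17, dpysl5a, a gene of the collapsin response mediator family, which acts in growing axons, lies 61 bp from dnmt3ab. It was at -0.89 (SE 0.18), next to -0.92 for dnmt3ab. Whether reads are shared between dpysl5a and dnmt3ab was not tested. In both pairs the values differed by less than either SE.

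Of the 5 listed neighbours of tet2, 4 were lower and 1 was higher. The nearest, g3bp2a, a gene of a stress granule protein, lies 42.9 kb away and was at -0.21 (SE 0.08), and the largest change was that of si:dkey-25o16.4 at -1.93 (SE 0.36). cxxc4, the gene of a TET2-binding protein, lies 61.2 kb away, and in vertebrates it is held to derive from a CXXC domain once joined to TET2. It was lower as well, at -0.41 against -0.62 for tet2. cdkn2a/b, the gene of a cell cycle inhibitor, lies 225 kb from tet2 and went the other way, at 0.98 (SE 0.33). Near dnmt3ba, 3 of 4 listed genes were higher, among them wasb, an actin regulator gene of blood cells, at 1.52 and cfp, the gene of the complement regulator properdin, at 1.11. The nearest was 179 kb away. The remaining higher gene, si:ch73-237c6.1, lies inside the span of cfp, and its interval runs from -0.09 to 1.51 (adjusted p = 0.0477, DESeq2). dnmt3bb.1 had no listed gene within 500 kb.

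**Figure D4:**
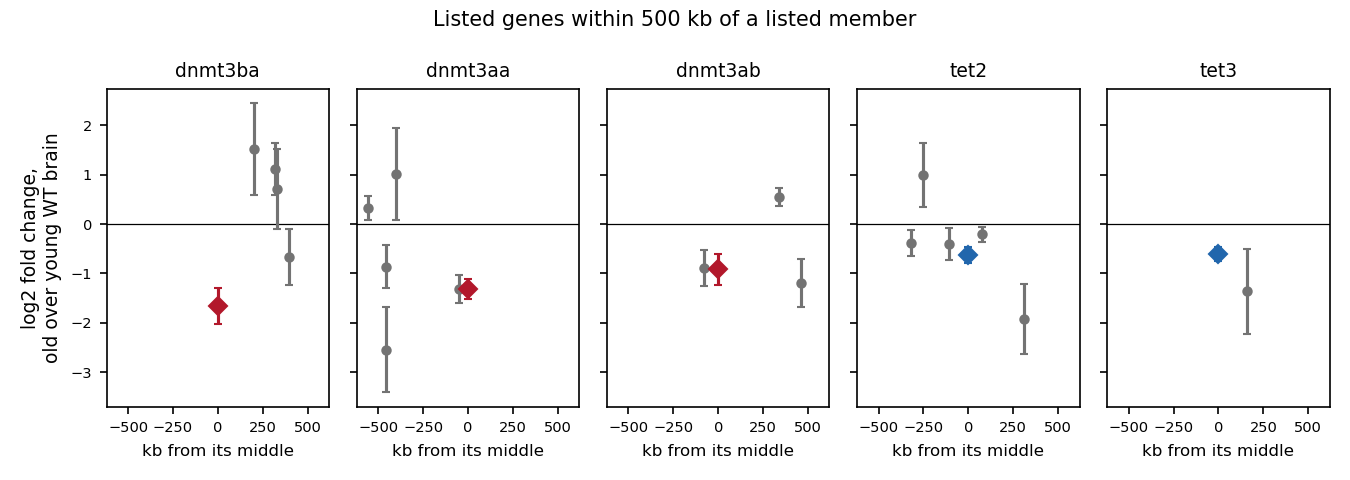
Log2 fold change of old over young WT brain (y axis) of listed genes within 500 kb of a listed member, by distance of gene middles from the middle of the member (x axis, kb), 1 panel per member. Coloured diamonds are the members, grey circles the neighbours, and bars 95% intervals. CU571074.2 beside dnmt3aa and dpysl5a beside dnmt3ab sit at the level of the member, while 3 of 4 neighbours of dnmt3ba are above 0. The interval of si:ch73-237c6.1, a neighbour of dnmt3ba, crosses 0.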

How the data were processed

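Per the submitters' processing notes, reads were handled with cutadapt 3.0 and MultiQC 1.9, and STAR, HTSeq and GRCz11 are listed. In the paper's methods, featureCounts made the counts and DESeq2 the comparison. The signal the authors deposited is a mean of normalized counts over the libraries of their fit. The deposited log2 fold change is shrunken, at a median of 0.874 times what Wald statistic times standard error gives. The deposited scores are the standard error, the Wald statistic and gene positions in base pairs. The deposited p-value columns hold the Wald p, checked to equal its two-sided normal p, and its Benjamini-Hochberg adjusted p. All these values are of the authors' own comparison and are given as such, because no value per library was analysed here. Of 3 sheets, the others repeat genes of the first.

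From these columns intervals, ranks, counts per list, distances and medians were computed. Of 2887 entries, 2 repeat an identifier and were dropped. How many genes entered the p adjustment follows from adjusted over raw p, a step tested on simulated data. For 1 gene, not a member, fold change and Wald statistic have opposite signs. Gene names for lists came from RefSeq symbols (GRCz12tu), used for names and gene order only, and the table of gene names. All members are named, and of each list every listed gene where 6 or fewer are listed, otherwise up to 6, or up to 3 for cell markers, with the smallest adjusted p. A listed gene of the metabolism list is not reported here by name. cxxc4 and genes near members were named after their values were seen. Members and lists were chosen with earlier results of these data known. Alternatives were stricter thresholds, limits on change and count, the Bonferroni adjustment, Wald statistic times standard error in place of the fold change and matching by identifier. Sequences were not used here. Computation was in Python 3.11.15 with pandas 2.3.3, numpy 2.4.6, matplotlib 3.10.9 and scipy 1.17.1.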

Additional observations from a re-analysis of the deposited data

How the results depend on the processing

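The number of members listed as lower was 6, and it was 5 at an adjusted p under 0.01 or 0.001 and under the Bonferroni adjustment, 6 at a change of 0.5 or more on the log2 scale or a mean count of at least 50, 4 at a mean count of at least 200, and 2 (dnmt3aa and dnmt3ba) at a change of 1 or more on the log2 scale. No member was higher under any of these. The shares of all tested genes under such settings are not given here, for the members or for the lists below. Members were chosen by lower values in this same comparison, so these counts only describe them. The gene lost under the stricter p thresholds was dnmt3bb.1 (adjusted p = 0.0236, DESeq2; 1 under Bonferroni). Matching by identifier through the table of gene names found 3 members, because that table gives the other 3 identifiers as DNMT3A or DNMT3B. The median log2 fold change of the listed members moved from -0.87 to -1.08 with Wald statistic times standard error in place of the shrunken value, and no member changed sign.

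At an adjusted p under 0.01, the number of listed genes moved to 4 for regulation of DNMT3 and TET, 3 for base excision repair, 3 for methylated DNA readers (all lower), 4 for histone lysine methyltransferases, 6 for neural progenitors and young neurons and 4 for microglia and macrophages. Matched by identifier, it moved to 3 for regulation of DNMT3 and TET, 3 for base excision repair, 5 for neural progenitors and young neurons and 3 for mature neurons, as the table of names lacks some symbols. No paired analysis was possible because the table holds no value per library, and leaving out a replicate could not be run for the same reason. Low mean counts come with wide intervals for dnmt3bb.1 and the maintenance partners.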

Other observations

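Histone lysine methyltransferase genes, which act on chromatin beside the DNA methylation enzymes, were listed in both directions in old WT brain. Of 30 annotated genes, 4 were lower and 3 higher, and 23 are not listed. That is 23.3% listed, with 13.9% of all tested genes called. The lower histone methyltransferase genes ehmt1b, setdb1a and nsd2 were counted with the genes that guide DNMT3 and TET, not here. All 6 listed DNA methyltransferase and TET genes were lower. That group was chosen by the lower values of dnmt3aa, dnmt3ba and tet3 in this same comparison, so its direction is not to be read against this list. The difference between the lists was not tested. Related genes went opposite ways. Of the catalytic subunits of the Polycomb repressive complex that methylates histone H3, ezh1, known from non-dividing cells, was higher at 0.79 (standard error, SE, 0.23, adjusted p = 0.00117, DESeq2), and ezh2, known from dividing cells, was lower at -0.67 (SE 0.21, adjusted p = 0.00289, DESeq2). Their intervals, 0.34 to 1.23 and -1.09 to -0.26, lie on opposite sides of 0. Of the histone H4 methyltransferase genes, kmt5ab was higher at 1.70 (SE 0.37) and its paralog kmt5aa lower at -0.44 (SE 0.10). Reads shared between these paralogs were not tested. kmt2a was higher at 0.47 and dot1l lower at -0.46.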
